A study of Mus musculus with 16 samples.

Results

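The nuclear tRNA-Gln isodecoders are the cytosolic glutamine tRNAs that carry the anticodon CTG or TTG and differ elsewhere in the tRNA body. They were taken by name from 2 tables of tRNA counts, leaving out mitochondrial tRNA-Gln and the rows named tRX. The rule gave 13 rows of 819 in the fibroblast table and 13 of 821 in the heart table, in each 7 with the anticodon CTG and 6 with TTG. The study dealt with base editing and with a disease mutation in the gene for mitochondrial tRNA-Ala. Its 16 mouse libraries came from cultured embryonic fibroblasts and from hearts. The fibroblast lines are named Ctrl_1, Cl_1, Cl_2 and Cl_3, with 2 libraries each, taken from different passages of the line. Each name stands for 1 line, so a trait of the single Ctrl_1 line enters every fibroblast comparison. The hearts came from 8 mice of the m.5024T model, named for a T at position 5024 of the mitochondrial DNA, and the controls belong to that model too. Of these, 4 are labelled AAV9-GFP and 4 AAV9-DdCBE. AAV9 is an adeno-associated virus used to carry genes into the heart, GFP is a fluorescent protein that serves as the control cargo, and DdCBE is a base editor that converts C to T in double-stranded DNA. The AAV9-GFP hearts are those of mice 5 and 6, labelled 5X, and of mice 14 and 19, labelled 3X. The AAV9-DdCBE hearts are those of mice 17 and 18, labelled 10X, of mouse 25, labelled 5X, and of mouse 26, labelled 2X. The labels used here explain neither Ctrl and Cl nor the X numbers, and give no age and no promoter for the vectors. The tables hold tRNAs only, so the labelled cell and tissue types could not be checked against marker genes.

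Glutamine is encoded by the codons CAG and CAA. The CTG anticodon pairs with CAG. The TTG anticodon pairs with CAA and, through wobble at its first base, can also read CAG. The uridine at that wobble position is heavily modified in cytosolic tRNA-Gln, and 1 glutaminyl-tRNA synthetase charges both kinds. Isodecoders of an anticodon read the same codons, so a shift among them leaves the number of tRNAs for a codon as it is when their sum stays level. A table of RefSeq genes of the assembly GRCm38.p6 lists 16 nuclear mouse genes for tRNA-Gln, 10 with CTG and 6 with TTG, all 72 bases long. That table does not pair its genes with isodecoder names, so no isodecoder is given a place in the genome here.

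Libraries held 1473330 to 4375975 counts in the fibroblasts and 1540287 to 3037178 in the hearts. Mitochondrial tRNAs took 2.14% to 3.74% of the counts in the fibroblasts and 37.4% to 59.9% in the hearts. The highest share in the hearts was that of mouse 17, an AAV9-DdCBE heart labelled 10X, and mouse 18, which carries the same label, had 44.5%. Levels below are CPM, counts of a transcript scaled to a library of fixed size, with the library size adjusted by edgeR's TMM method. Shares of nuclear tRNA counts, and of the counts of an anticodon, do not depend on the mitochondrial part. The fibroblast replicates are passages of a line, so p-values there measure the spread between passages.

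tRNA-Gln was a family of middling abundance. It took a median of 4.35% of nuclear tRNA counts in the fibroblast libraries (range 4.19% to 4.67%) and 3.94% in the hearts (3.71% to 4.80%). By mean share it ranked 9 among 23 families of nuclear tRNAs, grouped by amino acid as the rows name them, in the fibroblasts and 10 in the hearts. The CTG anticodon carried most of it. Its isodecoders held 83.3% to 86.2% of tRNA-Gln counts in the fibroblasts and 83.9% to 86.2% in the hearts. Among single anticodons CTG ranked 6 of 52 in the fibroblasts and 9 of 51 in the hearts, and TTG 43 of 52 and 44 of 51.

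Within each anticodon 2 isodecoders held nearly all counts. tRNA-Gln-CTG-2 took a median of 73.2% of the CTG counts in the fibroblasts and 75.0% in the hearts, and tRNA-Gln-CTG-3 took 25.3% and 23.4%. tRNA-Gln-TTG-3 took a median of 65.4% of the TTG counts in the fibroblasts and 67.8% in the hearts, and tRNA-Gln-TTG-1 took 31.8% and 30.0%. The order of these major members was therefore the same in both sets of libraries, which were counted in separate tables and were not tested against each other. Next came tRNA-Gln-CTG-1, with a median of 1.66% of the CTG counts in the fibroblasts and 1.69% in the hearts, and tRNA-Gln-TTG-2, with 2.33% and 1.98% of the TTG counts. Relative to their own size, these 2 minor members varied far more than the major ones. Across hearts tRNA-Gln-CTG-1 ranged from 0.997% to 5.55% and tRNA-Gln-TTG-2 from 0.829% to 16.1%, with both upper ends in mouse 17. In percentage points the major members also spread widely, with tRNA-Gln-CTG-2 at 60.2% to 76.7% of the CTG counts. tRNA-Gln-CTG-4 lay near the bottom, with 11 to 111 counts in a fibroblast library and 70 to 268 in a heart. tRNA-Gln-CTG-7 had 34 to 95 counts in the fibroblasts and 5 to 27 in the hearts, and tRNA-Gln-CTG-6 had 11 to 31 and 1 to 6.

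**Figure D1:**
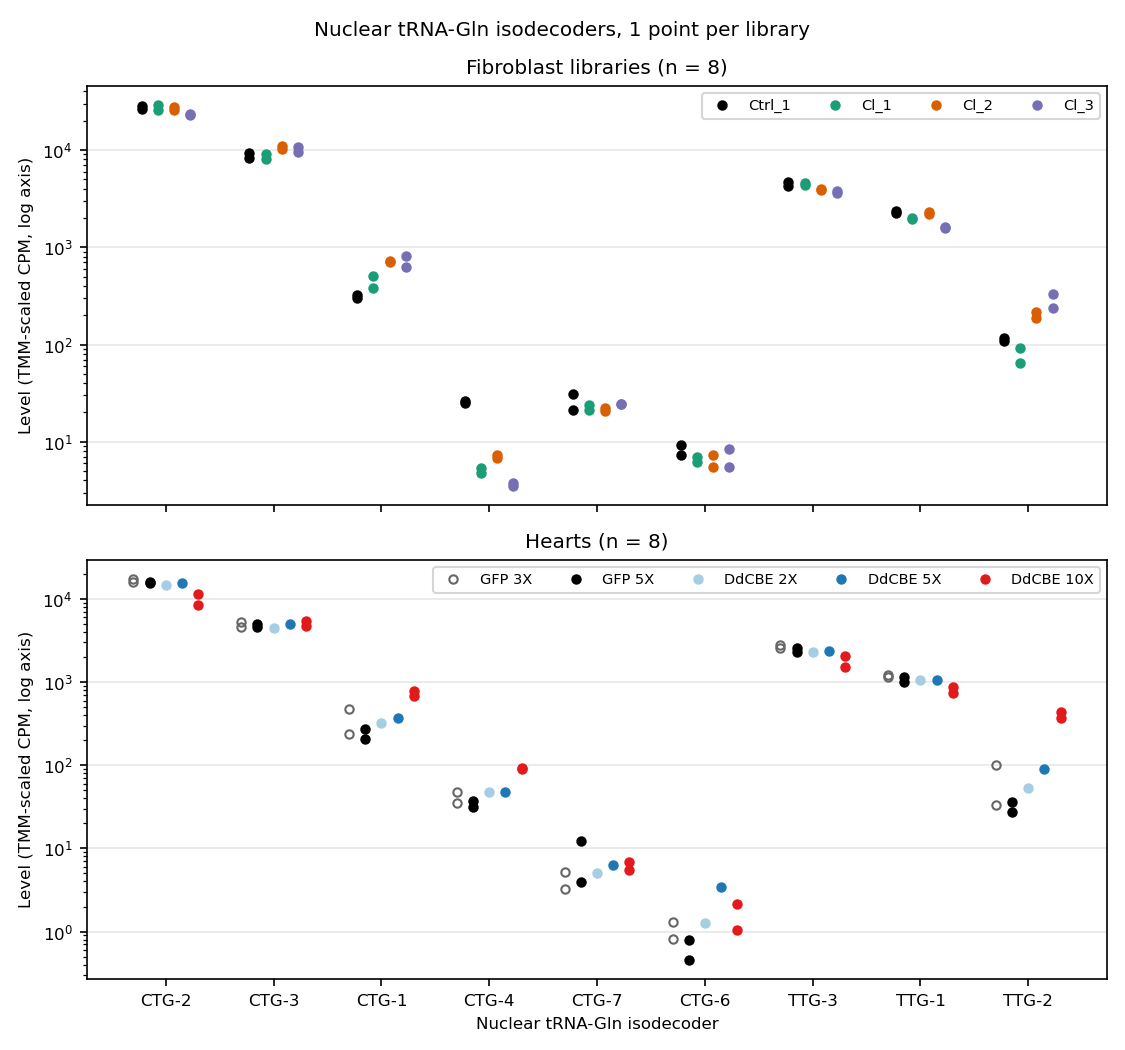
Level of each nuclear tRNA-Gln isodecoder with enough counts to plot, as TMM-scaled CPM on a log axis, with 1 point per library; fibroblasts above, hearts below, and open circles for AAV9-GFP hearts labelled 3X. CTG-4 is low in all Cl lines; in the hearts labelled 10X, TTG-2, CTG-1 and CTG-4 are highest and CTG-2, TTG-3 and TTG-1 lowest.

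The other 4 members were at the edge of detection. tRNA-Gln-TTG-4 had 0 to 2 counts, tRNA-Gln-TTG-5 had 1 to 9 and tRNA-Gln-TTG-6 had 0 to 8 in any library of either table. tRNA-Gln-CTG-5 had 0 counts in both Ctrl_1 libraries, which allows up to 0.981 and 0.712 CPM (3 counts per library). It had 6 and 7 counts in Cl_1, 1 and 1 in Cl_2, and 2 and 1 in Cl_3. In the hearts it had 2 counts in mouse 17, 1 in mouse 18 and 0 in the other 6. These 4 were left out of the tests by the filter on low counts, which kept 9 members among 201 transcripts in the fibroblasts and 8 among 180 in the hearts, where tRNA-Gln-CTG-6 also stayed out. The 4 rows named tRX-Gln had 0 counts in all libraries.

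In the fibroblasts, 2 of 6 tested CTG isodecoders passed in the mean of the Cl lines, in opposite directions. The CTG sum did not pass the test. Averaged over the Cl lines, tRNA-Gln-CTG-4 fell and tRNA-Gln-CTG-1 rose, and the major members CTG-2 and CTG-3 did not pass. Of the 9 members tested 3 passed an edgeR adjusted p of 0.05 in that average, or 33.3%, against 48.3% of all transcripts tested. Of these, 1 was higher, as were 22.9% of all transcripts, and 2 were lower, as were 25.4%. The median log2 change of the 9 was -0.15, and that of all transcripts was -0.00080. The comparisons of the single lines with Ctrl_1 share the Ctrl_1 libraries and are given side by side.

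tRNA-Gln-CTG-4, a rare CTG isodecoder, was at 24.8 and 26.4 CPM in the Ctrl_1 libraries, or 76 and 111 counts. It was at 5.36 and 4.74 CPM in Cl_1, at 6.86 and 7.23 in Cl_2, and at 3.77 and 3.48 in Cl_3, each from 11 to 21 counts. All Cl libraries lay below both Ctrl_1 libraries, as they did for 22.9% of all transcripts tested (44.3% lay apart in either direction). The log2 change was -2.32 in Cl_1 (SE 0.20, adjusted p 3.47e-04 in edgeR), -1.87 in Cl_2 (SE 0.20, adjusted p 4.72e-04 in edgeR) and -2.81 in Cl_3 (SE 0.20, adjusted p 9.25e-05 in edgeR). The 3 changes did not differ past the threshold (edgeR F test among the Cl lines, adjusted p = 0.125). Its share of CTG counts was 0.0698% ± 0.00674 in Ctrl_1 and at most 0.0192% in a Cl library, so it weighed little in the sum of its anticodon. With the counts of each line added up, Ctrl_1 is 1 sample whose spread is taken from the 3 Cl lines, so no variation between control lines is measured; the log2 change was then -2.31 (adjusted p 0.0168 in edgeR, which passed 4.07% of all transcripts).

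tRNA-Gln-CTG-1, a minor CTG isodecoder, was at 321 and 301 CPM in Ctrl_1. It was at 385 and 507 CPM in Cl_1, at 711 and 728 in Cl_2, and at 622 and 808 in Cl_3. Every Cl library lay above both Ctrl_1 libraries, as they did for 21.4% of all transcripts, and Cl_1 lay between Ctrl_1 and the other Cl lines. The log2 change was 1.21 in Cl_2 (SE 0.18, adjusted p 0.00212 in edgeR) and 1.20 in Cl_3 (SE 0.18, adjusted p 0.00209 in edgeR), or 2.31-fold and 2.30-fold. In Cl_1 it was 0.52 (SE 0.18) and missed the threshold (adjusted p 0.0633 in edgeR). The Cl lines differed from each other in this member (edgeR F test, adjusted p = 0.0444). That call was lost without Ctrl_1 replicate 1, Cl_1 replicate 1, either Cl_2 library or Cl_3 replicate 2 (edgeR adjusted p 0.0628 to 0.220). It held in 7 of 13 alternatives, and not in all of those that kept every library. With the counts of each line added up, the mean change of 1.01 missed the threshold (adjusted p 0.197 in edgeR).

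tRNA-Gln-CTG-2, the most abundant tRNA-Gln, was at 28589 and 26657 CPM in Ctrl_1. It was at 28998 and 25511 CPM in Cl_1, at 27774 and 25933 in Cl_2, and at 23696 and 22980 in Cl_3. Both Cl_3 libraries lay below both Ctrl_1 libraries, while Cl_1 and Cl_2 overlapped with them. In Cl_3 the log2 change was -0.24 (SE 0.08, adjusted p 0.0338 in edgeR). That call was lost without either Cl_3 library, without either Ctrl_1 library and without Cl_2 replicate 1 (edgeR adjusted p 0.0801 to 0.226), and on library totals the change was -0.10 (adjusted p 0.171 in edgeR).

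tRNA-Gln-CTG-3, the second major CTG isodecoder, was at 9229 and 8335 CPM in Ctrl_1. It was at 9126 and 8144 CPM in Cl_1, at 10204 and 11006 in Cl_2, and at 9608 and 10762 in Cl_3. The Cl_2 and Cl_3 libraries all lay above both Ctrl_1 libraries, and those of Cl_1 overlapped with them. It passed in Cl_2 with a log2 change of 0.27 (SE 0.09, adjusted p 0.0458 in edgeR), and missed the threshold whichever of the 8 libraries was left out (edgeR adjusted p 0.0607 to 0.221). In Cl_3 the change was 0.21 (SE 0.09, adjusted p 0.0865 in edgeR). tRNA-Gln-CTG-6 and tRNA-Gln-CTG-7 passed in no comparison of the fibroblasts.

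**Figure D2:**
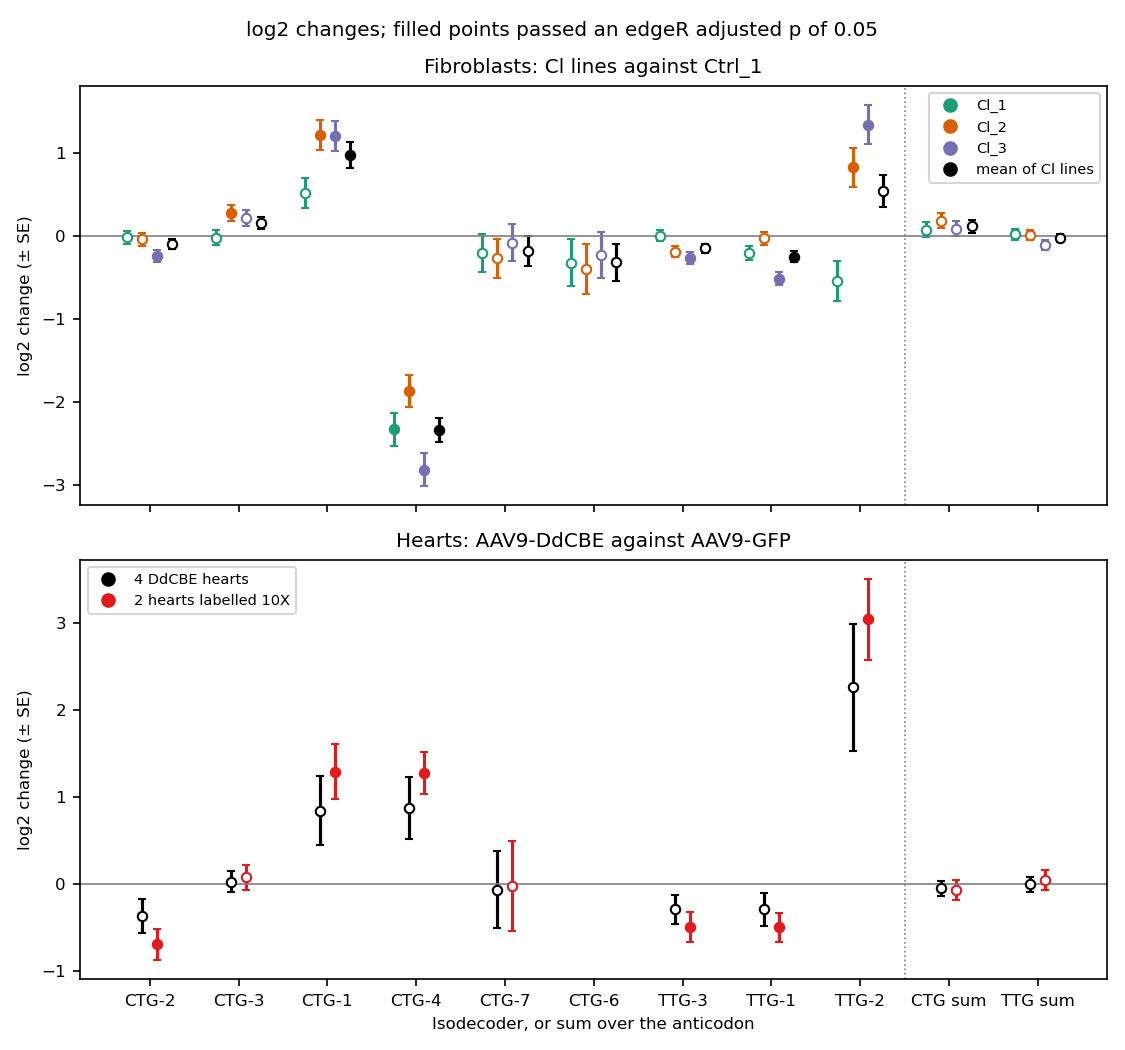
log2 changes of each tested tRNA-Gln isodecoder and of the sum over each anticodon, with error bars of 1 SE from the edgeR fit; filled points passed an edgeR adjusted p of 0.05. In the upper panel, Cl lines against Ctrl_1, CTG-4 lies between -2.81 and -1.87 and CTG-1 between 0.52 and 1.21; in the lower panel, hearts, TTG-2, CTG-1 and CTG-4 lie above 0 and both sums lie near 0.

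Of the 3 tested TTG isodecoders 2 differed among the Cl lines past the threshold, TTG-2 and TTG-1, against 24.4% of all transcripts. tRNA-Gln-TTG-2, the minor one, was at 117 and 109 CPM in Ctrl_1. It was at 64.6 and 91.3 CPM in Cl_1, at 186 and 214 in Cl_2, and at 237 and 333 in Cl_3. The Cl_1 libraries lay below both Ctrl_1 libraries and those of Cl_2 and Cl_3 above them. It rose in Cl_3 by a log2 change of 1.34, or 2.52-fold (SE 0.23, adjusted p 0.00365 in edgeR), and in Cl_2 by 0.82, or 1.77-fold (SE 0.23, adjusted p 0.0247 in edgeR). In Cl_1 the change was -0.54 (SE 0.24, adjusted p 0.124 in edgeR). The Cl lines differed from each other (edgeR F test, adjusted p = 0.00532), and this held in all 13 alternatives run. The call in Cl_2 alone was lost without either Ctrl_1 library and without either Cl_2 library (edgeR adjusted p 0.0524 to 0.116).

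tRNA-Gln-TTG-1, a major TTG isodecoder, was at 2228 and 2347 CPM in Ctrl_1. It was at 1989 and 1976 CPM in Cl_1, at 2304 and 2177 in Cl_2, and at 1620 and 1582 in Cl_3. Both Cl_3 libraries were the lowest of the 8, and Cl_2 overlapped with Ctrl_1. The log2 change in Cl_3 was -0.51 (SE 0.08, adjusted p 0.00215 in edgeR), a call kept in all 13 alternatives. In Cl_1 it was -0.21 (SE 0.08, adjusted p 0.0905 in edgeR) and in Cl_2 -0.03 (SE 0.08, adjusted p 0.803 in edgeR). The Cl lines differed from each other (edgeR F test, adjusted p = 0.0121), which was lost without either Cl_3 library and without Cl_2 replicate 1 (edgeR adjusted p 0.0675 to 0.106). The mean of the Cl lines passed at -0.25 (SE 0.06, adjusted p 0.0145 in edgeR) but not without either Ctrl_1 library or without Cl_3 replicate 2 (edgeR adjusted p 0.0526 to 0.146), nor on library totals (-0.15, adjusted p 0.106 in edgeR), with no filter (-0.24, adjusted p 0.101 in edgeR) or with the counts of each line added up (-0.23, adjusted p 0.674 in edgeR).

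tRNA-Gln-TTG-3, the main TTG isodecoder, was at 4299 and 4644 CPM in Ctrl_1. It was at 4557 and 4394 CPM in Cl_1, at 3937 and 3908 in Cl_2, and at 3810 and 3627 in Cl_3. Cl_1 overlapped with Ctrl_1, and Cl_2 and Cl_3 lay below it. It passed in Cl_3, with a log2 change of -0.27 (SE 0.07, adjusted p 0.0164 in edgeR), but not without either Cl_3 library, without Ctrl_1 replicate 2 or without Cl_2 replicate 1 (edgeR adjusted p 0.0505 to 0.139). The call in Cl_3 held in 7 of 13 alternatives. On library totals the change was -0.13 (adjusted p 0.173 in edgeR). In Cl_2 it was -0.19 (SE 0.07, adjusted p 0.0588 in edgeR). The Cl lines did not differ past the threshold in this member (edgeR F test, adjusted p = 0.0543).

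By line, 1 of the 9 members passed in Cl_1, where 33.8% of all transcripts did. That member was lower, as were 18.9% of all transcripts, and none was higher, against 14.9%. In Cl_2 4 of 9 passed, against 46.3% of all transcripts, with 3 higher (25.9% of all) and 1 lower (20.4%). In Cl_3 6 of 9 passed, against 50.7%, with 2 higher (26.4% of all) and 4 lower (24.4%). Among the Cl lines 3 of 9 differed from line to line, against 24.4%. Mitochondrial tRNAs took 3.57% ± 0.234 of the counts in Ctrl_1 (SD, n = 2) and 2.54% ± 0.298 in the Cl libraries (SD, n = 6), and the part of this in the changes was not tested.

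Summed over an anticodon, the fibroblasts showed no change past the threshold. The CTG sum was 0.11 higher on the log2 scale averaged over the Cl lines (95% interval -0.06 to 0.28, adjusted p 0.241 in edgeR) and the TTG sum 0.03 lower (interval -0.14 to 0.09, adjusted p 0.674 in edgeR). Of all 70 anticodon sums tested 42.9% passed in that comparison. In the single lines the CTG sum was at 0.07, 0.18 and 0.08 (edgeR adjusted p 0.553, 0.152 and 0.488 in Cl_1, Cl_2 and Cl_3) and the TTG sum at 0.02, 0.01 and -0.11 (edgeR adjusted p 0.835, 0.909 and 0.203). Here 24.3%, 35.7% and 25.7% of all sums passed. The Cl lines did not differ past the threshold in either sum (edgeR F test, adjusted p = 0.663 for CTG and 0.431 for TTG; 1.43% of all sums passed). A sum does not depend on how reads were divided among near-identical isodecoders of the same anticodon. It would depend on any division of reads between CTG and TTG members, which was not tested.

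The ratio of CTG to TTG counts was 5.75 and 4.98 in the Ctrl_1 libraries. It was 5.83 and 5.29 in Cl_1, 6.02 and 5.98 in Cl_2, and 5.99 and 6.24 in Cl_3. Of the 6 Cl libraries 5 lay above both Ctrl_1 libraries, and Cl_1 replicate 2 lay between them. On the log2 scale the ratio was 2.56 ± 0.08 (SD, n = 6) in the Cl libraries and 2.42 ± 0.15 (SD, n = 2) in Ctrl_1, a difference of 0.14 (two-sided p = 0.0714 by exact permutation, or 0.286 after Benjamini-Hochberg adjustment over 4 tests). The 28 possible splits can give no p below 0.0357. The tRNA-Gln share of nuclear tRNA counts was 4.43% ± 0.207 (SD, n = 6) in the Cl libraries and 4.29% ± 0.0861 (SD, n = 2) in Ctrl_1 (two-sided p = 0.500 by exact permutation, 0.667 adjusted). The 6 Cl libraries are passages of 3 lines, so these splits take as exchangeable libraries that share a line.

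In the hearts, the minor isodecoders TTG-2, CTG-1 and CTG-4 were highest in the AAV9-DdCBE hearts of mice 17 and 18, both labelled 10X. How many of all transcripts were highest or lowest in these hearts was not counted. The sums over each anticodon lay close to those of the AAV9-GFP hearts. Over all 4 AAV9-DdCBE hearts against 4 AAV9-GFP hearts, 0 of 8 members passed the edgeR test, against 0% of all transcripts tested. At an unadjusted p under 0.05 stood tRNA-Gln-TTG-2 and tRNA-Gln-CTG-4, which makes 2 of 8, against 19.4% of all transcripts. DESeq2 called tRNA-Gln-TTG-2 alone among the 8 (log2 change 2.42, adjusted p 0.0181), against 15% of all transcripts. Both counts are near these shares. The median log2 change of the 8 members was -0.02 and that of all transcripts -0.10. The hearts labelled 10X were also set against AAV9-GFP on their own, with the same 4 control hearts, in a comparison chosen with earlier results of these data known. There 6 of 8 members passed, or 75.0%, against 51.7% of all transcripts tested. Of these 3 were higher, against 23.9% of all transcripts, and 3 lower, against 27.8%. The median log2 change was 0.03 over the 8 and -0.23 over all transcripts. Scaled on nuclear tRNAs only, which leaves the mitochondrial rows out, the median over the 157 transcripts then tested was -0.04. Changes in the 10X hearts are given on both scales.

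tRNA-Gln-TTG-2 was at 27.7, 36.6, 33.4 and 101 CPM in the AAV9-GFP hearts of mice 5, 6, 19 and 14. It was at 435 and 371 CPM in mice 17 and 18, at 89.6 in mouse 25 and at 52.6 in mouse 26. Mice 17 and 18 stood far above all others, and mice 25 and 26 lay within the range of AAV9-GFP, so the groups of 4 overlapped. Its log2 change over 4 against 4 hearts was 2.26 (SE 0.73, adjusted p 0.0977 in edgeR), and without mouse 26 it was 2.75 (adjusted p 0.0237 in edgeR). In the 10X hearts it rose by 3.05, or 8.26-fold (SE 0.47, adjusted p 9.92e-04 in edgeR), and by 3.34 scaled on nuclear tRNAs (adjusted p 8.84e-04 in edgeR). It passed in all 12 alternatives. With either 10X heart left out it was 2.93 or 3.16. Within the TTG anticodon it held 16.1% of the counts in mouse 17 (95% Wilson interval 15.3% to 17.0%) and 11.1% in mouse 18 (10.4% to 11.8%), against 0.829% to 2.43% in the AAV9-GFP hearts. These intervals cover counting error only.

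tRNA-Gln-CTG-1 was at 208, 276, 238 and 476 CPM in the AAV9-GFP hearts of mice 5, 6, 19 and 14. It was at 780 and 683 CPM in mice 17 and 18, at 367 in mouse 25 and at 318 in mouse 26. The order was that of tRNA-Gln-TTG-2: mice 17 and 18 were the highest and mouse 14 was the highest of AAV9-GFP. In the 10X hearts it rose 2.45-fold (log2 change 1.29, SE 0.32, adjusted p 0.0131 in edgeR), and by 1.58 scaled on nuclear tRNAs. Without mouse 17 it was 1.19 and missed the threshold (adjusted p 0.110 in edgeR). Over 4 against 4 hearts it was at 0.84 (SE 0.40, adjusted p 0.272 in edgeR). It held 5.55% of the CTG counts in mouse 17 (95% Wilson interval 5.33% to 5.78%), 3.83% in mouse 18 (3.65% to 4.02%) and 0.997% to 2.04% in AAV9-GFP.

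tRNA-Gln-CTG-4 was at 31.8, 37.4, 35.0 and 47.7 CPM in the AAV9-GFP hearts of mice 5, 6, 19 and 14. It was at 93.3 and 90.0 CPM in mice 17 and 18, at 47.4 in mouse 25 and at 47.6 in mouse 26. The 10X hearts lay at about the same level, above all others. It rose there 2.42-fold (log2 change 1.28, SE 0.24, adjusted p 0.00313 in edgeR), by 1.56 scaled on nuclear tRNAs, and passed in all 12 alternatives. Over 4 against 4 hearts it was at 0.88 (SE 0.36, adjusted p 0.185 in edgeR). This member, which fell against Ctrl_1 in each Cl line, was higher in the 10X hearts than in AAV9-GFP. The 2 tables were fitted apart, so the difference between these changes was not tested.

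**Figure D3:**
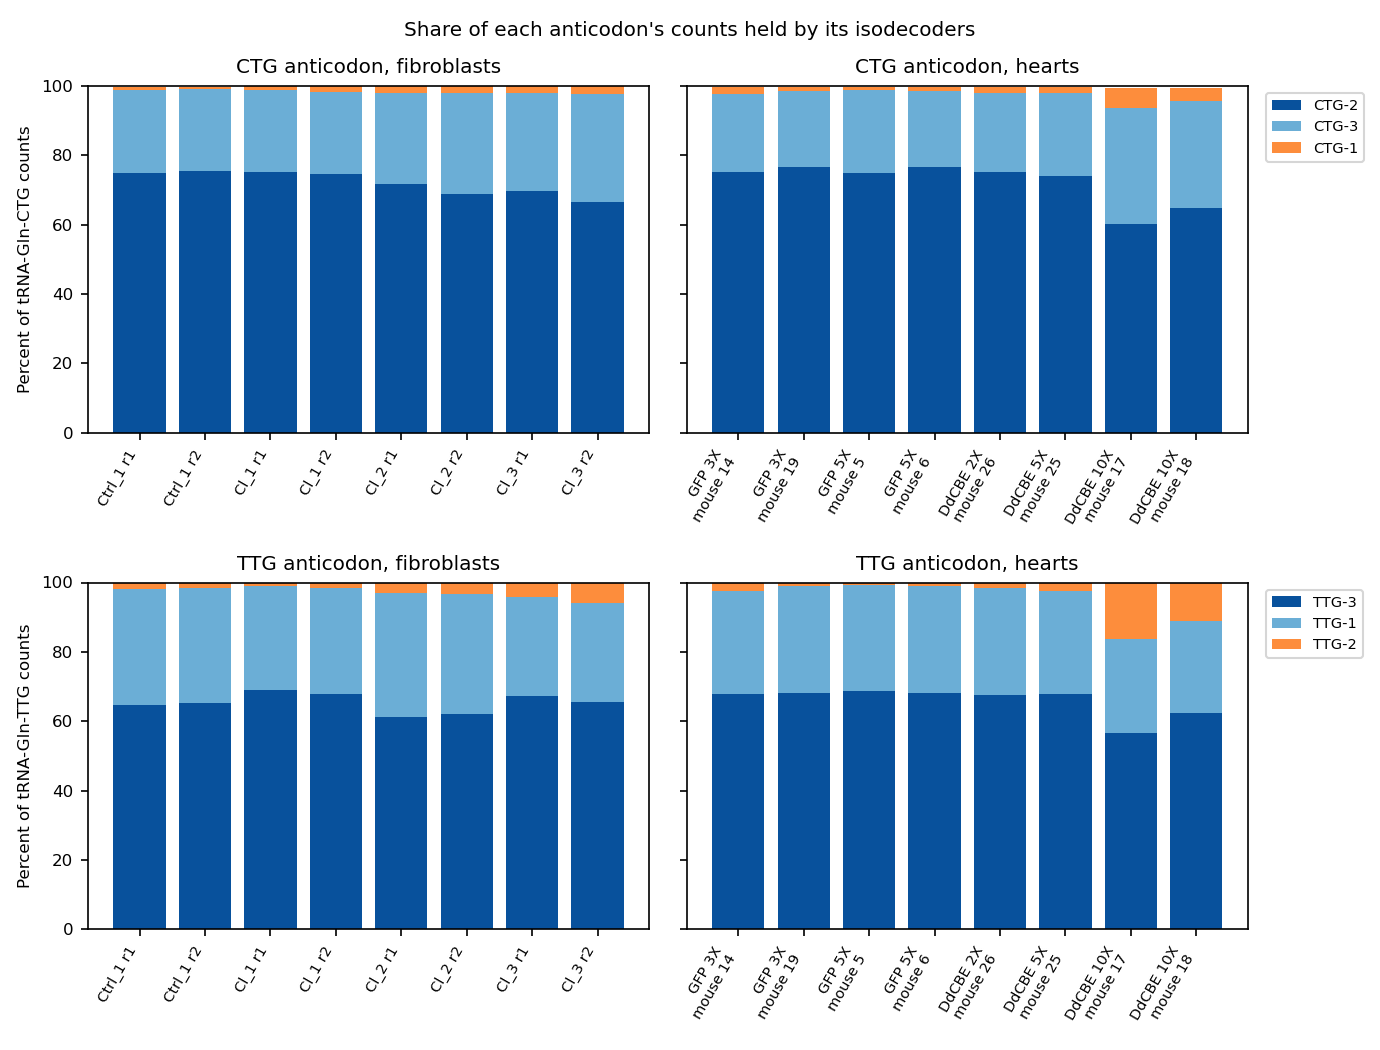
Share of each anticodon's counts held by its main isodecoders, as stacked bars with 1 bar per library; the unlabelled remainder at the top belongs to the rarer isodecoders. In hearts 17 and 18, labelled 10X, the bars of CTG-2 and TTG-3 are shorter than in all other hearts, and TTG-2 reaches 16.1% and 11.1% of the TTG counts.

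Of the major members, CTG-2, TTG-3 and TTG-1 fell in the 10X hearts with TMM over all tRNAs, and CTG-3 did not pass. tRNA-Gln-CTG-2 was at 15615, 15886, 15866 and 17484 CPM in the AAV9-GFP hearts of mice 5, 6, 19 and 14. It was at 8458 and 11581 CPM in mice 17 and 18, at 15482 in mouse 25 and at 14690 in mouse 26. All AAV9-DdCBE hearts lay below all AAV9-GFP hearts, though mouse 25 did so by little. It was the single member of 8 whose groups lay apart, against 7.78% of all transcripts (2.22% lower and 5.56% higher). As a share of nuclear tRNA counts, which leaves the mitochondrial part out, the groups did overlap, with 1.99% and 2.36% in mice 17 and 18, 2.71% and 2.37% in mice 25 and 26, and 2.45% to 3.06% in AAV9-GFP. In the 10X hearts its log2 change was -0.69 (SE 0.18, adjusted p 0.0148 in edgeR), and -0.43 scaled on nuclear tRNAs (adjusted p 0.0160 in edgeR). It missed the threshold on library totals (-0.58, adjusted p 0.0759 in edgeR), with no filter (-0.47, adjusted p 0.0890 in edgeR) and without mouse 5, 6, 25 or 26 (edgeR adjusted p 0.0547 to 0.137). Over 4 against 4 hearts it was at -0.37 (SE 0.19, adjusted p 0.320 in edgeR).

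tRNA-Gln-CTG-3 was at 4972, 4551, 4542 and 5260 CPM in the AAV9-GFP hearts of mice 5, 6, 19 and 14. It was at 4711 and 5468 CPM in mice 17 and 18, at 5037 in mouse 25 and at 4464 in mouse 26. The groups overlapped throughout. Over 4 against 4 hearts the log2 change was 0.03 (SE 0.12, adjusted p 0.869 in edgeR), and that in the 10X hearts was 0.08 (SE 0.14, adjusted p 0.661 in edgeR). Scaled on nuclear tRNAs it was 0.35 and passed (adjusted p 0.0216 in edgeR). The share of tRNA-Gln-CTG-3 in the CTG counts was 33.5% and 30.7% in mice 17 and 18, against 21.9% to 23.9% in AAV9-GFP.

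tRNA-Gln-TTG-3 was at 2301, 2548, 2536 and 2811 CPM in the AAV9-GFP hearts of mice 5, 6, 19 and 14. It was at 1528 and 2079 CPM in mice 17 and 18, at 2383 in mouse 25 and at 2332 in mouse 26. Only the 10X hearts lay below the range of AAV9-GFP. The log2 change there was -0.50 (SE 0.17, adjusted p 0.0399 in edgeR), and over 4 against 4 hearts it was -0.29 (SE 0.17, adjusted p 0.323 in edgeR).

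tRNA-Gln-TTG-1 was at 1015, 1158, 1155 and 1224 CPM in the same AAV9-GFP hearts. It was at 730 and 882 CPM in mice 17 and 18, at 1046 in mouse 25 and at 1071 in mouse 26. Mice 25 and 26 again lay within the range of AAV9-GFP and the 10X hearts below it, with a log2 change of -0.50 (SE 0.17, adjusted p 0.0382 in edgeR). Over 4 against 4 hearts it was -0.29 (SE 0.19, adjusted p 0.339 in edgeR). Scaled on nuclear tRNAs, the changes of TTG-3 and TTG-1 were -0.23 and -0.22 and did not pass (0.190 and 0.239 for the edgeR adjusted p). Both calls were also lost on library totals, with DESeq2, with no filter and without any 1 of mice 5, 6, 17, 19, 25 and 26 (adjusted p 0.0873 to 0.345 over these alternatives in edgeR, 0.115 and 0.164 in DESeq2). Of the 12 alternatives they held in 2, without mouse 14 and without mouse 18. The mitochondrial share of the libraries was 59.9% and 44.5% in mice 17 and 18, against 37.4% to 43.3% in AAV9-GFP. Within AAV9-GFP, mouse 5, at 37.4%, had the lowest levels of TTG-3 and TTG-1, and mouse 14, at 42.5%, the highest. The part of the mitochondrial share in these changes was not tested. tRNA-Gln-CTG-7, with 5 to 27 counts, was at -0.02 (SE 0.52, adjusted p 0.974 in edgeR).

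Neither anticodon sum passed the test in the hearts. The CTG sum differed by -0.05 on the log2 scale over 4 against 4 hearts (95% interval -0.25 to 0.15, adjusted p 0.934 in edgeR) and the TTG sum by -0.0034 (interval -0.21 to 0.20, adjusted p 0.975 in edgeR). In the 10X hearts they were at -0.07 (interval -0.36 to 0.22, adjusted p 0.859 in edgeR) and 0.05 (interval -0.24 to 0.33, adjusted p 0.885 in edgeR). In both comparisons 0% of the 70 anticodon sums passed in edgeR. Neither sum of tRNA-Gln had an unadjusted p under 0.05 in edgeR, and DESeq2, which passed 2.86% of all sums over 4 against 4 hearts and 18.6% in the 10X hearts, called neither. On library totals the CTG and TTG sums in the 10X hearts were at -0.31 and -0.20 (adjusted p 0.324 and 0.498 in edgeR). The ratio of CTG to TTG counts was 6.23, 5.54, 5.55 and 5.63 in the AAV9-GFP hearts of mice 5, 6, 19 and 14. It was 5.22 and 5.35 in mice 17 and 18, 5.95 in mouse 25 and 5.65 in mouse 26. The 10X hearts had the lowest ratios, and the groups of 4 overlapped. On the log2 scale the ratio was 2.47 ± 0.08 in AAV9-DdCBE and 2.52 ± 0.08 in AAV9-GFP (SD, n = 4 each), with a two-sided p of 0.457 by exact permutation, 0.667 adjusted, where 70 splits can give no p below 0.0286. The tRNA-Gln share of nuclear tRNA counts was 4.06% ± 0.289 in AAV9-DdCBE and 4.11% ± 0.470 in AAV9-GFP (SD, n = 4 each), with a two-sided p of 0.914 by exact permutation.

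**Figure D4:**
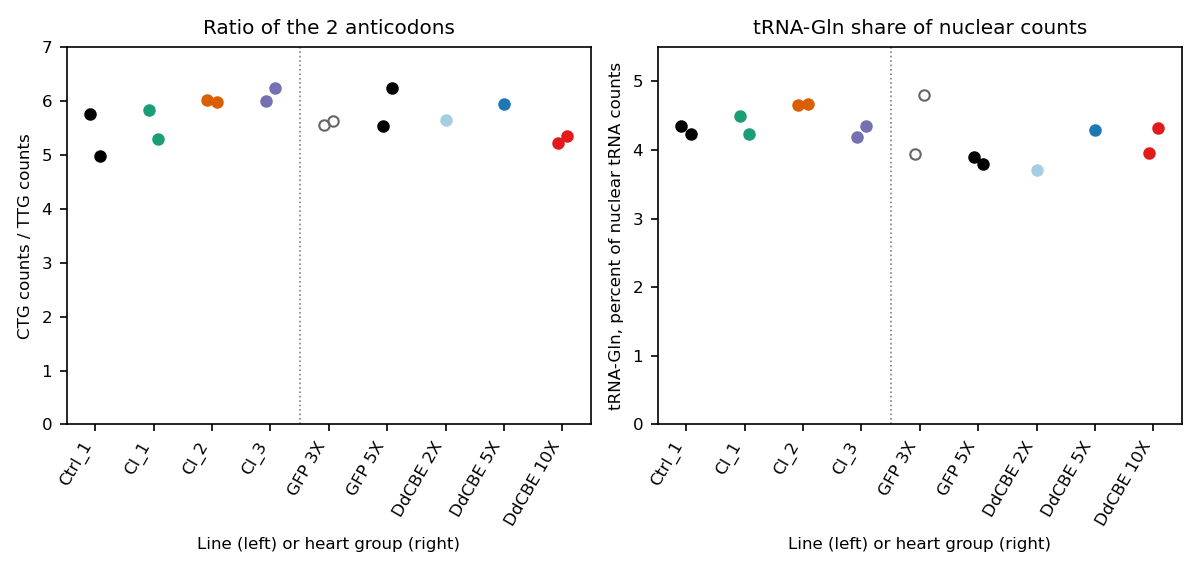
Ratio of CTG to TTG counts (left) and tRNA-Gln as a percent of nuclear tRNA counts (right), with 1 point per library and axes that start at 0; lines or heart groups stand along the x axis. The ratio stays between 4.98 and 6.24 and the share between 3.71% and 4.80% in all libraries.

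Related tRNAs served as a comparison. Nuclear tRNA-Glu, which carries glutamate, the amino acid closest to glutamine, had 9 rows. Averaged over the Cl lines 4 of 6 tested tRNA-Glu members passed, or 66.7%, against 48.3% of all transcripts, 1 higher and 3 lower. The largest log2 change was that of tRNA-Glu-CTC-2, -1.87 (SE 0.55, adjusted p 0.0242 in edgeR). tRNA-Glu-TTC-2 was at -0.36 (SE 0.05, adjusted p 0.00105 in edgeR) and tRNA-Glu-TTC-1 at -0.22 (SE 0.05, adjusted p 0.00702 in edgeR). tRNA-Glu-TTC-3 was at 0.39 (SE 0.09, adjusted p 0.00783 in edgeR). In the hearts 0 of 5 passed over 4 against 4, and 1 of 5 passed in the 10X hearts, against 51.7% of all transcripts, tRNA-Glu-TTC-2 with -1.01 (SE 0.31, adjusted p 0.0259 in edgeR). Mitochondrial tRNA-Gln, which is encoded in the mitochondrial DNA and serves translation there, was at 543 ± 84.5 CPM (SD, n = 2) in Ctrl_1 and between 621 and 652 CPM on average in the Cl lines (log2 change in their mean 0.22, SE 0.21, adjusted p 0.439 in edgeR). In the hearts it was at 4335 ± 1222 CPM in AAV9-GFP and 3522 ± 1311 in AAV9-DdCBE (SD, n = 4 each; log2 difference -0.30, SE 0.29, adjusted p 0.485 in edgeR).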

How the data were processed

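Per the labels' protocols, libraries followed mim-tRNAseq, which reads nearly full-length tRNA, after an oxidation and beta-elimination step that sets charged and uncharged ends apart. The authors deposited raw counts per tRNA transcript, 1 table for the fibroblasts and 1 for the hearts. The submitters' processing notes name cutadapt 3.5 and the build mm39; the aligner, the counter and how reads of near-identical isodecoders were divided among them are, for this work, not given in the sources used, so values of single isodecoders are uncertain to that extent. The tables hold no counts by tRNA end, so charging was not analysed here.

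Tests on counts used edgeR 4.0.16 under R 4.3.3: filterByExpr (minimum count 10, minimum total 15), TMM factors, glmQLFit and glmQLFTest, Benjamini-Hochberg adjustment over all transcripts tested, and a threshold of 0.05. The 8 fibroblast libraries entered 1 fit by line, the 8 hearts 1 fit by treatment, and the 10X comparison a fit in which the 5X and 2X AAV9-DdCBE hearts formed groups of their own. SE is the log2 change over the root of its F statistic. Sums per anticodon were tested likewise, over 70 sums. Ratios and shares were compared by exact permutation (Python 3.11.15). Pipelines were tested on simulated data. No 2 replicates agreed within sampling noise.

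Alternatives were library totals, TMM on nuclear rows, DESeq2 1.42.0, no filter, a replicate block, tRX rows added to tRNA-Gln, lines summed, the ratio from the most abundant member of each anticodon, shares of all counts, and each library left out. Every tRNA-Gln row is accounted for. Values in every library are given for the 2 most abundant members of each anticodon and for every member past the threshold in any comparison. The members, lists and comparisons were chosen with earlier results of these data known.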

Additional observations from a re-analysis of the deposited data

Results flagged for a closer look

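The AAV9-GFP heart of mouse 14 stood apart from the other 3 AAV9-GFP hearts in 3 measures: tRNA-Gln-CTG-2 at 17484 CPM, tRNA-Gln-TTG-2 at 101 CPM and a tRNA-Gln share of nuclear tRNA counts of 4.80%, each the highest of its group. Mouse 14 also had the fewest counts of all hearts, 1540287. The AAV9-GFP heart of mouse 5 stood apart with the highest log2 ratio of CTG to TTG counts, 2.64. Of 20 groups examined for an outlying sample 4 had one, and chance alone gives about 1 in 20.

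The change against Ctrl_1 differed between the Cl lines in 3 of 9 members by an edgeR F test, against 24.4% of all transcripts. These were tRNA-Gln-TTG-2 (adjusted p = 0.00532 by that test), tRNA-Gln-TTG-1 (adjusted p = 0.0121) and tRNA-Gln-CTG-1 (adjusted p = 0.0444). Of 13 alternatives, the call of TTG-1 held in 10 and that of CTG-1 in 7. tRNA-Gln-TTG-2 went from -0.54 on the log2 scale in Cl_1 to 1.34 in Cl_3, and tRNA-Gln-TTG-1 from -0.03 in Cl_2 to -0.51 in Cl_3.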

How the results depend on the processing

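The number of tRNA-Gln members past the threshold moved with the processing. So did the share of all transcripts tested in the same setting, given in brackets. The transcripts tested differ by setting. In the fibroblasts they were 201 in the main analysis, 175 on nuclear rows, 355 with no filter and 221 with the lines summed. For the mean of the Cl lines, 3 in the main analysis (48.3%), it was 5 with TMM on nuclear rows (51.4%) and 1 with the lines summed (4.07%). For Cl_1, 1 in the main analysis (33.8%), it was 2 on nuclear rows (35.4%), 3 with DESeq2 (35.8%), 4 with no filter (23.7%) and 2 with the replicate block (38.3%). For the difference among the Cl lines, 3 in the main analysis (24.4%), it was 5 with DESeq2 (33.3%) and 5 with no filter (16.1%). For all hearts it was 1 with DESeq2 (15%) in place of 0 (0%), and for the 10X hearts 3 on library totals (31.7%) and 3 with no filter (26.6%) in place of 6 (51.7%). Leaving out 1 library gave 1 to 2 for Cl_1 (20.7% to 30.6%), 2 to 3 for Cl_2 (25.5% to 47.8%) and 1 to 3 among the Cl lines (9.22% to 19.2%). It gave 0 to 1 for all hearts (1 without mouse 26, with 17.1% of all transcripts) and 3 to 6 for the 10X hearts (22.8% to 66.5%). For Cl_1 it was 2 without either Cl_3 library or Cl_1 replicate 1 (29% to 30.6%). For Cl_2 it was 2 without either Ctrl_1 or either Cl_2 library (25.5% to 31.7%). Among the Cl lines it was 1 without Cl_3 replicate 2 (9.22%) or Cl_2 replicate 1 (13%). For the 10X hearts it was 3 without mouse 5, 6, 17, 25 or 26 (22.8% to 34.6% of all transcripts).

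Values near 0, none of them past the threshold in the main analysis, changed sign. On library totals tRNA-Gln-CTG-2 was at 0.0011 in the mean of the Cl lines, 0.044 in Cl_1 and 0.064 in Cl_2, tRNA-Gln-CTG-3 at 0.039 in Cl_1 and tRNA-Gln-TTG-1 at 0.074 in Cl_2; on nuclear rows tRNA-Gln-TTG-3 was at -0.037 in Cl_1. The TTG sum was at -0.0093 (totals) and -0.048 (nuclear rows) in Cl_1, -0.0075 and -0.033 in Cl_2, 0.023 (nuclear rows) and 8.4e-04 (DESeq2) in all hearts, and -0.20 (totals) in the 10X hearts. Leaving out 1 library gave these ranges on the log2 scale. For the TTG sum they were -0.13 to 0.057 in the mean of the Cl lines, -0.079 to 0.088 in Cl_1, -0.082 to 0.11 in Cl_2, -0.10 to 0.075 in all hearts and -0.10 to 0.12 in the 10X hearts. For the CTG sum they were -0.057 to 0.15 in Cl_1, 0.13 to 0.19 in Cl_2 (past the threshold without Cl_1 replicate 1, edgeR adjusted p = 0.0480) and -0.11 to 0.017 in all hearts. tRNA-Gln-CTG-2 ran from -0.10 to 0.11 in Cl_1 and from -0.073 to 0.0037 in Cl_2, tRNA-Gln-CTG-3 from -0.11 to 0.10 in Cl_1, -0.025 to 0.19 in all hearts and -0.028 to 0.26 in the 10X hearts, tRNA-Gln-TTG-3 from -0.067 to 0.072 in Cl_1, and tRNA-Gln-TTG-1 from -0.079 to 0.028 in Cl_2. The log2 ratio of CTG to TTG ran from 0.033 to 0.24 in the fibroblasts (exact permutation test, unadjusted p = 0.0476 without Cl_1 replicate 2), and the tRNA-Gln share from -0.147 to 0.191 percentage points in the hearts (above 0 without mouse 14 or mouse 26). The causes were not tested.

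The fibroblast replicate numbers were not taken to pair the samples, since the differences between replicates of 2 lines correlated with r of 0.0698 to 0.248 over 6 pairs of lines. With the replicate block 4 members passed in the mean of the Cl lines (52.2% of all transcripts), 2 in Cl_1 (38.3%), 3 in Cl_2 (45.8%), 6 in Cl_3 (52.7%) and 4 among the Cl lines (27.9%). Heart replicates are separate mice and could not be paired. Adding tRX-Gln rows changed nothing, as they had 0 counts. With 2 passages of a line, 2 hearts labelled 10X and 11 to 21 counts of tRNA-Gln-CTG-4 in a Cl library, precision is limited.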

Other observations

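Across the 8 hearts, the nuclear anticodon sums whose log2 share of nuclear tRNA counts ran most like that of the tRNA-Gln total, out of 46 compared, were tRNA-His-GTG (Pearson r = 0.955), tRNA-Leu-AAG (r = 0.953) and tRNA-Arg-ACG (r = 0.936). Across the 8 fibroblast libraries they were tRNA-Cys-GCA (r = 0.796), tRNA-Thr-CGT (r = 0.784) and tRNA-Thr-AGT (r = 0.745). These values are descriptions of libraries that share lines or treatments, and shares of 1 total depend on each other.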
